A study of Mus musculus with 10 samples.

Results

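The Notch pathway genes described here were 10 genes, namely the receptors Notch1 and Notch4, the ligands Dll1, Dll4, Jag1 and Jag2, the nuclear effector Rbpj and the HES/HEY targets Hes1, Hey1 and Hey2. They were picked by gene symbol as members of the pathway, with earlier results of these data known. All 10 were found among the 15686 genes of the matrix of stage means and among the 55487 genes of the count tables. RNA from enriched nuclei was sequenced at 5 stages of in vitro blood cell specification from HM-1 mouse embryonic stem cells (ESCs), a line used for gene targeting, with 2 libraries at each stage. The stages were undifferentiated ESCs grown with LIF (ES), FLK1+ hemangioblast cells taken with magnetic beads from embryoid bodies after 3 days in serum (HB), and 3 populations sorted after another 2.5 days of blast culture with VEGF, IL-6 and D4T conditioned medium. These were early hemogenic endothelium (HE1, KIT+ TIE2+ CD41-), later hemogenic endothelium (HE2, KIT+ TIE2+ CD41+) and hematopoietic progenitors (HP, KIT+ TIE2- CD41+). All libraries came from the same ESC line, which carried no other label of genotype, and the study describes its replicates at a stage as biologically independent. The labels do not say how their cultures were separated, so the p-values measure the spread between these libraries.

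Notch is a receptor read by touching cells. A ligand of the Delta or Jagged family on a neighbouring cell pulls on the receptor, which is then cut by an ADAM protease and by gamma-secretase, and the released intracellular domain enters the nucleus, joins the DNA-binding protein RBPJ and a Mastermind coactivator, and switches on genes of the HES and HEY families of transcriptional repressors. The pathway is known for arterial identity in endothelium and for its role in the emergence of blood stem cells from arterial hemogenic endothelium.

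The libraries held between 24920434 and 58782055 counted read pairs, and the log2 values of the 2 libraries of a stage correlated at between 0.969 in HE1 and 0.995 in ES (Pearson's r across genes). Markers were read before the Notch genes. Of the sort antigens, Kdr, which encodes FLK1, was at 957 and 1284 CPM in HB (CPM, counts relative to the library's scaled total) against 2.43 and 2.70 CPM in ES, and Tek, which encodes TIE2, was at 564 and 294 CPM in HE1 against 61.5 and 64.2 CPM in HP. Itga2b, which encodes CD41, was not absent from HE1, the CD41- gate, at 227 and 127 CPM against 505 and 469 CPM in HE2. Kit was at 146 and 73.0 CPM in HE1, below the 164 and 173 CPM of ES, which was not sorted, and at 230 and 410 CPM in HE2. A pair of libraries stood apart. In replicate 2 of HE1 the 6 pluripotency markers summed to 88.4 CPM against 7.70 CPM in replicate 1, and none of the 6 was at 0 in either. In replicate 2 of HE2 the 6 endothelial markers summed to 964 CPM against 1782 CPM in replicate 1, while the 6 hematopoietic markers summed to 1365 against 995 CPM. The endothelial sum was 3000 and 1797 CPM in HE1 and 438 and 496 CPM in HP, so replicate 2 of HE2 lay nearer to HP on that list. The lists include sort antigens, with Kdr among the hemangioblast, Tek among the endothelial and Itga2b among the hematopoietic markers, so these sums partly follow the gates. Counts of calls that use replicate 2 of HE1 or of HE2 are given below with and without that library.

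**Figure D1:**
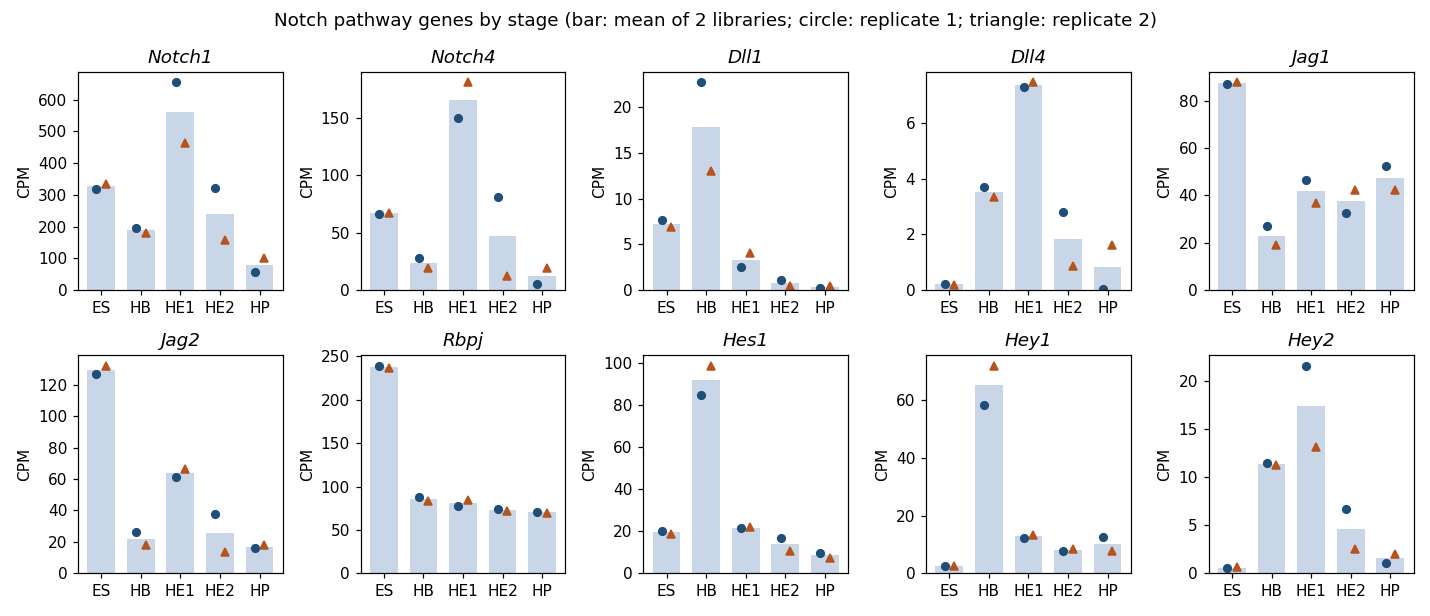
Level of each of the 10 Notch pathway genes in CPM (vertical axis, linear, from 0, scaled per gene) at the 5 stages (horizontal axis), with circles for replicate 1, triangles for replicate 2 and bars for their mean. Jag1, Jag2 and Rbpj were highest in ES, Dll1, Hes1 and Hey1 in HB, and Notch1, Notch4, Dll4 and Hey2 in HE1, while no gene had its highest mean in HE2 or HP.

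Notch1 and Notch4 were highest in HE1. Notch1 (ENSMUSG00000026923, chr2:26457903-26516663 on the minus strand of GRCm38), the receptor best known for arterial and blood stem cell formation, was at 320 and 335 CPM in ES, 196 and 180 CPM in HB, 655 and 465 CPM in HE1, 323 and 158 CPM in HE2, and 56.2 and 101 CPM in HP. Both HE1 libraries were above all others and both HP libraries below all others, and the HE2 libraries lay apart, one at the ES level and one just below HB. From HB to HE1 Notch1 rose by 1.57 ± 0.34 on the log2 scale (SE, n = 2 libraries a stage; a 2.98-fold change; adjusted p = 0.00639 by edgeR's quasi-likelihood F test with Benjamini-Hochberg adjustment over 22596 genes, the test behind every adjusted p below unless another is named). In bulk RNA such a change cannot be told apart from a change in the share of cells that express the gene. From HE1 to HE2 it fell by 1.22 ± 0.34 (adjusted p = 0.0417), and from HE1 to HP by 2.84 ± 0.36 (7.14-fold, adjusted p = 0.000618). The difference of HB from ES was -0.80 ± 0.34 and did not pass (adjusted p = 0.0821), nor did HP against HE2 (-1.62 ± 0.34, adjusted p = 0.138), although the libraries did not overlap in either.

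The fall of Notch1 from HE1 to HE2 was the least secure of these calls. Without replicate 2 of HE2 the difference was -0.78 (adjusted p = 0.301), without replicate 2 of HE1 it was -1.45 (adjusted p = 0.0814), and without replicate 1 of HE1 -0.93 (adjusted p = 0.0962), whereas without replicate 1 of HE2 it was -1.80 (adjusted p = 0.00675). Leaving out any 1 of the ES or HB libraries kept the difference at -1.19 with adjusted p between 0.0551 and 0.0628. The rise from HB to HE1 was 1.47 (adjusted p = 0.0588) without replicate 2 of HB. HP against HE2 passed without replicate 2 of HE2, at -2.04 (adjusted p = 0.0097). Over 9.76% of its exonic bases Notch1 is overlapped on the opposite strand by the genes 0610009E02Rik and Gm13568, which were at 0.252 to 1.62 and 0 to 0.223 CPM over the 10 libraries, and the counting was strand-specific.

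Notch4 (ENSMUSG00000015468, chr17:34564268-34588503, plus strand), a receptor found mainly in endothelium, was at 66.7 and 67.2 CPM in ES, 27.8 and 19.5 CPM in HB, 150 and 181 CPM in HE1, 81.6 and 12.3 CPM in HE2, and 5.66 and 19.4 CPM in HP. Replicate 2 of HE2 lay among the HP libraries, and replicate 1 above both ES libraries. Notch4 rose by 2.81 ± 0.73 (7.0-fold, adjusted p = 0.0154) from HB to HE1 and fell by 3.74 ± 0.77 (13.3-fold, adjusted p = 0.00641) from HE1 to HP. It did not pass from ES to HB (-1.50 ± 0.70, adjusted p = 0.116), from HE1 to HE2 (-1.82 ± 0.70, adjusted p = 0.0999) or from HE2 to HP (-1.92 ± 0.72, adjusted p = 0.469). The HE2 libraries decided the last 2 of these: without replicate 1 of HE2 they were -3.73 (adjusted p = 0.00334) and 0.01 (adjusted p = 1), and without replicate 2 they were -1.0 (adjusted p = 0.382) and -2.71 (adjusted p = 0.0204). The rise into HE1 did not pass without either HB library (adjusted p = 0.0626 without replicate 1 and 0.115 without replicate 2) or without replicate 2 of HE1 (2.67, adjusted p = 0.0527), and the fall to HP did not pass without replicate 1 of HP (-3.08, adjusted p = 0.0572) and was -4.85 (adjusted p = 0.0109) without replicate 2. Over the 10 libraries the log2 levels of Notch1 and Notch4 correlated at 0.95 (Pearson's r), the highest value among the 10 genes, as a description of libraries that share their stages.

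The 4 ligands did not follow 1 course. Dll1 was highest in HB, Dll4 in HE1, and Jag1 and Jag2 in ES. Dll1 (ENSMUSG00000014773, chr17:15367354-15376872, minus strand), a Delta ligand of early mesoderm and somites, was at 7.63 and 6.86 CPM in ES, 22.7 and 13.0 CPM in HB, 2.52 and 4.06 CPM in HE1, 1.16 and 0.444 CPM in HE2, and 0.228 and 0.477 CPM in HP. The stages were separate from each other except HE2 and HP, where one library of each overlapped. Dll1 rose by 1.30 ± 0.44 from ES to HB (2.46-fold, adjusted p = 0.036), fell by 2.43 ± 0.46 from HB to HE1 (5.40-fold, adjusted p = 0.00318) and fell by 2.04 ± 0.50 from HE1 to HE2 (4.10-fold, adjusted p = 0.0295), whereas HP against HE2 was -1.23 ± 0.57 (adjusted p = 0.667). The rise into HB did not pass without ES replicate 1 (adjusted p = 0.12), ES replicate 2 (0.16) or HB replicate 1 (0.87, adjusted p = 0.27), and the fall into HE2 did not pass without replicate 2 of HE1 (-1.65, adjusted p = 0.145) or of HE2 (-1.49, adjusted p = 0.215) and was -2.86 (adjusted p = 0.00972) without replicate 1 of HE2. HP was 9.59-fold below HE1 (-3.26 ± 0.54, adjusted p = 0.00221), on 10 and 15 read pairs in the HP libraries.

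Dll4 (ENSMUSG00000027314, chr2:119325784-119335962, plus strand), the Delta ligand of arterial endothelium and of sprouting tip cells, was at 0.213 and 0.201 CPM in ES, 3.70 and 3.35 CPM in HB, 7.28 and 7.46 CPM in HE1, 2.80 and 0.857 CPM in HE2, and 0.0456 and 1.62 CPM in HP. ES, HB and HE1 were each tight and separate, and the HP libraries overlapped those of HE2 and of ES, with only 2 read pairs in replicate 1 of HP against 51 in replicate 2. Dll4 rose by 4.06 ± 1.06 from ES to HB (16.7-fold, adjusted p = 0.0113). The difference of HE1 from HB was 1.06 ± 0.87 (adjusted p = 0.372) and that of HE2 from HE1 -2.01 ± 0.91 (adjusted p = 0.141), while HP against HE1 passed at -3.20 ± 0.97 (adjusted p = 0.0355). The rise into HB did not pass without either ES library (adjusted p = 0.0612 and 0.0556). HP against HE1 was -7.21 (adjusted p = 0.00203) without replicate 2 of HP, a value resting on the 2 read pairs of replicate 1, -2.17 (adjusted p = 0.0648) without replicate 1 of HP and -3.19 (adjusted p = 0.0915) without replicate 2 of HE1, and it also missed without either HB library (-3.15, adjusted p = 0.0539 and 0.0538), whereas HE2 against HE1 passed without either HP library (-1.99, adjusted p = 0.0348 and 0.0349). The gene Gm14207 overlaps 5.56% of the exonic bases of Dll4 on the opposite strand and was at 0 to 0.892 CPM.

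The Jagged ligands fell on leaving ES and were higher again in HE1. Jag1 (ENSMUSG00000027276, chr2:137081456-137116644, minus strand), which is active in vascular smooth muscle coverage and in many other tissues, was at 86.9 and 87.8 CPM in ES, 26.9 and 18.9 CPM in HB, 46.6 and 36.7 CPM in HE1, 32.5 and 42.5 CPM in HE2, and 52.3 and 42.4 CPM in HP. ES was highest and HB lowest without overlap, and the libraries of HE1, HE2 and HP were mixed. Jag1 fell by 1.93 ± 0.22 from ES to HB (3.81-fold, adjusted p = 7.35e-05) and rose by 0.86 ± 0.21 from HB to HE1 (1.82-fold, adjusted p = 0.0122). The later differences were small and did not pass, with a 95% interval of -0.62 to 0.32 for HE2 against HE1 and of -0.13 to 0.81 for HP against HE2. The rise into HE1 was 0.59 (adjusted p = 0.144) without replicate 2 of HB and 0.64 (adjusted p = 0.0668) without replicate 1 of HE1.

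Jag2 (ENSMUSG00000002799, chr12:112907819-112929776, minus strand), the other Jagged ligand, was at 127 and 132 CPM in ES, 26.1 and 18.3 CPM in HB, 61.1 and 66.5 CPM in HE1, 38.0 and 13.7 CPM in HE2, and 15.9 and 18.2 CPM in HP. It shared with Jag1 the high ES and lower HB levels, but in HE2 its 2 libraries lay on either side of those of HB and HP. Jag2 fell by 2.55 ± 0.38 from ES to HB (5.84-fold, adjusted p = 0.000406), rose by 1.53 ± 0.37 from HB to HE1 (2.88-fold, adjusted p = 0.0103) and fell by 1.30 ± 0.36 from HE1 to HE2 (2.47-fold, adjusted p = 0.0421). HP was 3.75-fold below HE1 (-1.91 ± 0.37, adjusted p = 0.00487). The fall into HE2 was -0.73 (adjusted p = 0.157) without replicate 2 of HE2 and -1.24 (adjusted p = 0.16) without replicate 2 of HE1, against -2.20 (adjusted p = 0.00046) without replicate 1 of HE2, and it also missed without any 1 of the ES, HB or HP libraries (adjusted p from 0.0532 to 0.0553). HP against HE2 was -0.60 ± 0.36 (adjusted p = 0.834), turned to 0.31 (adjusted p = 0.918) without replicate 1 of HE2 and passed at -1.16 (adjusted p = 0.0208) without replicate 2. Without replicate 2 of HB the rise into HE1 did not pass (1.25, adjusted p = 0.0974), and without replicate 1 of HP the fall from HE1 to HP did not pass (-1.79, adjusted p = 0.0524).

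Rbpj (ENSMUSG00000039191, chr5:53466152-53657362, plus strand), the DNA-binding partner of every Notch receptor, was at 239 and 237 CPM in ES, 87.4 and 83.6 CPM in HB, 78.0 and 85.1 CPM in HE1, 73.7 and 72.3 CPM in HE2, and 70.4 and 70.0 CPM in HP. After the ES stage its libraries stayed within 70.0 to 87.4 CPM. Rbpj fell by 1.48 ± 0.12 from ES to HB (2.78-fold, adjusted p = 1.17e-05), and no later difference passed: HE1 against HB was -0.07 (95% interval -0.34 to 0.20), HE2 against HE1 -0.16 (-0.43 to 0.11) and HP against HE2 -0.06 (-0.33 to 0.22). These intervals leave out a change of 2-fold in either direction. The call from ES to HB held without any 1 library.

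RBPJ binds a core of the letters TGGGAA, read on either strand, and the 250 bases before RefSeq transcript starts were searched for them in the RefSeq promoter table for GRCm38.p6, which held 8 of the 10 genes in 10 windows. These starts are not the ends of the Ensembl gene spans given here: by those spans the windows of Rbpj, Notch1 and Jag2 and 1 of the 2 windows of Dll1 lie wholly inside the gene, and those of Jag1, Notch4 and Hey2 partly. The letters stood in 3 of the 10 windows (30.0%), 2 of them overlapping windows of Rbpj and 1 of Hey2, against 7094 of 32851 windows of all genes in the table (21.6%). The windows of Notch1, Notch4, Dll1, Dll4, Jag1 and Jag2 did not hold these letters. The first Rbpj window (chr5:53590096-53590345, plus strand) is shown because it held 2 matches, 1 on each strand, starting 149 and 65 bases before the start. Capitals mark the match, which reads TTCCCA where it lies on the opposite strand. A match of 6 letters describes the sequence and is not a bound site.
Rbpj: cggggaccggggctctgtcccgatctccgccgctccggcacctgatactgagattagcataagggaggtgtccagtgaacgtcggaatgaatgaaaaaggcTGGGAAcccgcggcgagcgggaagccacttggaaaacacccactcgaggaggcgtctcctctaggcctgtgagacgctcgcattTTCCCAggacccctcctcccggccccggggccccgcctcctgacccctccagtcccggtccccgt

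The 3 targets were all higher in HB than in ES and then parted. Hes1 (ENSMUSG00000022528, chr16:30064384-30067796, plus strand), a repressor that many signals besides Notch can induce, was at 20.3 and 18.8 CPM in ES, 84.7 and 98.8 CPM in HB, 21.6 and 21.8 CPM in HE1, 17.0 and 10.6 CPM in HE2, and 9.56 and 7.47 CPM in HP. The 5 stages did not overlap, with HB far above the rest. Hes1 rose by 2.23 ± 0.23 from ES to HB (4.69-fold, adjusted p = 3.59e-05) and fell by 2.08 ± 0.23 from HB to HE1 (4.23-fold, adjusted p = 0.000125). HE2 against HE1 was -0.65 ± 0.22 (adjusted p = 0.071) and HP against HE2 -0.69 ± 0.22 (adjusted p = 0.334), and over both steps together HP was 2.54-fold below HE1 (-1.35 ± 0.23, adjusted p = 0.00225). Without replicate 1 of HE2 the step from HE1 to HE2 passed (-1.01, adjusted p = 0.0119), and without replicate 2 the step from HE2 to HP passed (-0.99, adjusted p = 0.0326).

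Hey1 (ENSMUSG00000040289, chr3:8663359-8667256, minus strand), a repressor of the cardiovascular system, was at 2.59 and 2.50 CPM in ES, 58.5 and 72.0 CPM in HB, 12.3 and 13.4 CPM in HE1, 7.68 and 8.44 CPM in HE2, and 12.6 and 7.85 CPM in HP. HB was highest and ES lowest, and the HP libraries overlapped those of HE1 and HE2. Hey1 rose by 4.68 ± 0.26 from ES to HB (25.6-fold, adjusted p = 1.06e-06) and fell by 2.35 ± 0.23 from HB to HE1 (5.08-fold, adjusted p = 7.53e-05). No later difference passed (HE2 against HE1 -0.67 ± 0.23, adjusted p = 0.0722; HP against HE1 -0.33 ± 0.23, adjusted p = 0.312), although HE2 against HE1 did without either HP library (-0.65, adjusted p = 0.0476 and 0.0464).

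Hey2 (ENSMUSG00000019789, chr10:30832359-30842801, minus strand), the HEY gene most tied to arterial fate and to heart muscle, was at 0.514 and 0.689 CPM in ES, 11.4 and 11.3 CPM in HB, 21.6 and 13.1 CPM in HE1, 6.67 and 2.51 CPM in HE2, and 1.07 and 2.03 CPM in HP. Its stages did not overlap, and unlike Hes1 and Hey1 its highest level was in HE1. Hey2 rose by 4.25 ± 0.53 from ES to HB (19.1-fold, adjusted p = 0.000137), did not pass from HB to HE1 (0.61 ± 0.44, adjusted p = 0.313), and fell by 1.92 ± 0.46 from HE1 to HE2 (3.78-fold, adjusted p = 0.0276). HP was 11.3-fold below HE1 (-3.50 ± 0.50, adjusted p = 0.00104). The fall into HE2 was -1.37 (adjusted p = 0.179) without replicate 2 of HE2, -2.77 (adjusted p = 0.00446) without replicate 1 of HE2 and -1.50 (adjusted p = 0.0548) without replicate 1 of HE1. Without replicate 2 of HE2, HP against HE2 passed at -2.12 (adjusted p = 0.0277), against -1.58 ± 0.48 (adjusted p = 0.296) with all libraries.

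Hey2 and Dll4 had the second-highest correlation among the 10 genes, at 0.928 over the 10 libraries (a description with no test, since the libraries share their stages), and their windows are shown together for that reason. The Hey2 window (chr10:30842784-30843033, minus strand) held the RBPJ letters once, starting 207 bases before the start and on the opposite strand, in capitals. In the Dll4 window (chr2:119325534-119325783, plus strand) no such letters stood, so it has no capitals.
Hey2: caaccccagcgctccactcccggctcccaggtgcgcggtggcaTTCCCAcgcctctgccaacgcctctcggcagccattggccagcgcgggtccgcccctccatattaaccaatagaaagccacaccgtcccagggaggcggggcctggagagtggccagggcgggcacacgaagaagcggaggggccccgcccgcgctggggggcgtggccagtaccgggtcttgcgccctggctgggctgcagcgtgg
Dll4: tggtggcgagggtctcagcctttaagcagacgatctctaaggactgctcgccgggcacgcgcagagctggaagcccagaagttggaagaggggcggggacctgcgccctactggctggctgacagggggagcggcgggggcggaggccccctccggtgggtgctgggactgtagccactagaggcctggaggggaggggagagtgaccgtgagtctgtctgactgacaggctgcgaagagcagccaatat

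**Figure D2:**
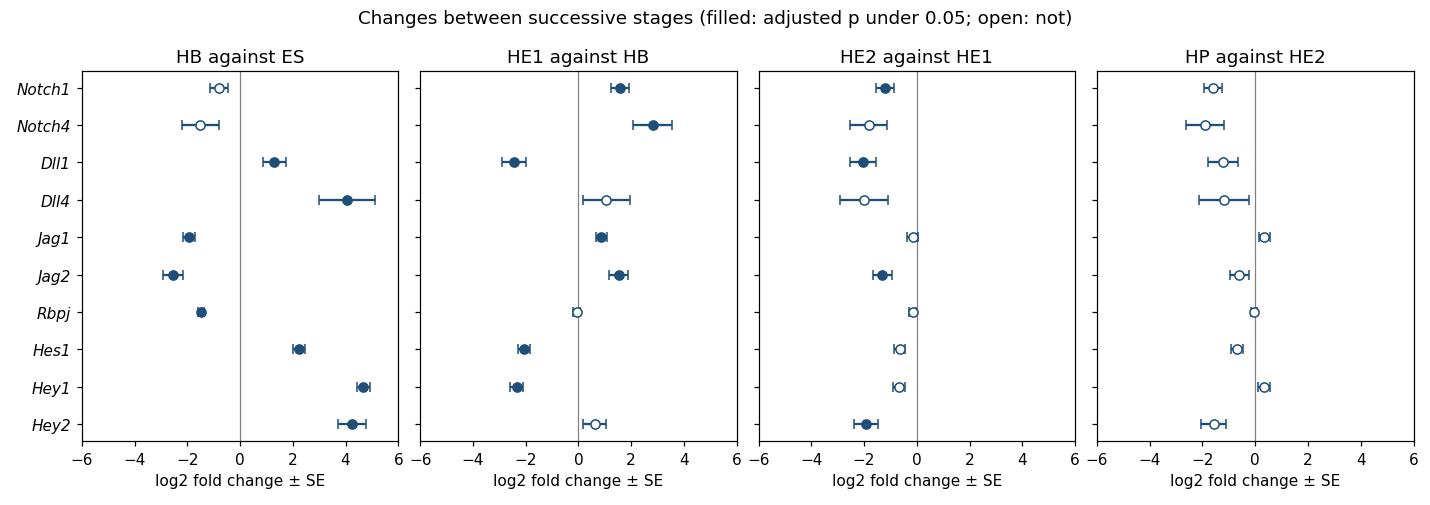
Log2 fold change of each gene (horizontal axis, later minus earlier stage, bars ± SE) between successive stages, 1 panel a step, with filled points where the adjusted p was under 0.05. The 3 targets and both Delta ligands lay to the right from ES to HB, Notch1, Notch4, Jag1 and Jag2 to the right from HB to HE1, and no point was filled from HE2 to HP.

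From ES to HB, 8 of the 10 genes passed the test, 5 higher and 3 lower, where 40.4% of all 22596 tested genes passed (17.8% higher, 22.6% lower and 28.8% with a change of at least 2-fold as well). All 8 changed at least 2-fold. The 5 that rose were the 3 targets and the 2 Delta ligands, and the 3 that fell were the 2 Jagged ligands and Rbpj. Their median log2 fold change was 0.25, against 0 over all tested genes. The libraries did not overlap for any of the 10 genes, where 78.7% of tested genes did not overlap. Leaving out 1 library at a time gave 6 to 10 genes, 6 without either ES library (Dll1 and Dll4 then missed, and 23.3% and 23.5% of the genes then tested passed) and 10 without either HE2 library (Notch1 and Notch4 then passed, beside 38.9% of tested genes each time). Over the same step the pluripotency marker sum went from 3133 and 3101 CPM in ES to 415 and 439 CPM in HB. The hemangioblast sum went from 10.3 and 10.2 to 1424 and 1799 CPM, of which Kdr, which encodes the antigen used to take the HB cells, was 957 and 1284 CPM. The neural sum went from 59.5 and 59.1 to 2.05 and 1.35 CPM and the smooth muscle sum from 88.6 and 99.3 to 17.2 and 13.2 CPM. The part of these lists in the result was not tested.

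From HB to HE1, 7 of the 10 genes passed, 4 higher and 3 lower, against 32.3% of tested genes (17.5% higher, 14.8% lower and 20.9% at least 2-fold). Both receptors and both Jagged ligands rose, and Dll1, Hes1 and Hey1 fell, with only the change of Jag1 under 2-fold. The libraries did not overlap for 9 of the 10 genes, against 65.5% of tested genes. The median log2 fold change was 0.74, against 0.04 over all tested genes. Over the 10 leave-one-out fits the count was 3 to 7, with 3 without replicate 2 of HB, when both receptors and both Jagged ligands missed the threshold and 14.2% of the genes then tested passed. Without replicate 2 of HE1, the library with the higher pluripotency sum, 6 passed, beside 23.9% of tested genes. Over the same step the endothelial marker sum went from 246 and 217 CPM in HB to 3000 and 1797 CPM in HE1. The smooth muscle sum went from 17.2 and 13.2 to 622 and 939 CPM. Its highest single marker held 403 and 569 CPM of that in HE1, and its lowest was at 0.294 and 0.859 CPM. The pluripotency sum went from 415 and 439 to 7.70 and 88.4 CPM and the neural sum from 2.05 and 1.35 to 30.5 and 76.2 CPM. The part of any of these lists in the result was not tested.

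From HE1 to HE2, 4 of the 10 genes passed, namely Notch1, Dll1, Jag2 and Hey2, all lower and all at least 2-fold, against 13.2% of tested genes (6.12% higher, 7.12% lower and 8.65% at least 2-fold). The median log2 fold change was -1.26, against -0.08 over all tested genes, and 9 of the 10 genes did not overlap, against 59.2% of tested genes. The count depended on the HE2 and HE1 libraries: it was 0 without replicate 2 of HE2 (beside 1.95% of the genes then tested) and 6 without replicate 1 (19.3%), and 1 without replicate 2 of HE1 (3.11%) and 2 without replicate 1 (24.9%). It was also 2 without any 1 of the ES or HB libraries (7.08% to 7.58%). The endothelial marker sum moved in the same direction, from 3000 and 1797 CPM in HE1 to 1782 and 964 CPM in HE2, and the hematopoietic sum from 311 and 199 to 995 and 1365 CPM, and the part of either in the result was not tested.

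From HE2 to HP, 0 of the 10 genes passed edgeR's quasi-likelihood test, as did 0% of tested genes. At an unadjusted p under 0.05 there were 4 genes (Notch1, Notch4, Hes1 and Hey2, all lower) and 1783 of all tested genes. By DESeq2 2 of the 10 passed, against 2.07% of tested genes, and by limma-voom 0, against 0.292%. The 4 genes that did not overlap were Notch1, Rbpj, Hes1 and Hey2, against 28.8% of tested genes. Without replicate 2 of HE2, the HE2 library with the lower endothelial sum, 5 passed (Notch1, Notch4, Jag2, Hes1 and Hey2), all lower, against 2.58% of the genes then tested, and leaving out any other library gave 0.

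HP was also compared with HE1 directly, across the loss of TIE2 and the gain of CD41. Here 7 of the 10 genes passed, all lower and all at least 2-fold, against 24.9% of tested genes (11.0% higher, 13.9% lower and 16.5% at least 2-fold). These were both receptors, Dll1, Dll4, Jag2, Hes1 and Hey2, with Jag1, Rbpj and Hey1 not passing. The libraries did not overlap for 8 of the 10 genes, against 57.0% of tested genes. The median log2 fold change was -2.37, against -0.02 over all tested genes. The endothelial sum was 3000 and 1797 CPM in HE1 and 438 and 496 CPM in HP, the hematopoietic sum was 311 and 199 CPM in HE1 and 1394 and 1192 CPM in HP, and the part of either in the result was not tested. Without replicate 1 of HP 4 passed (Notch1, Dll1, Hes1 and Hey2), beside 9.02% of the genes then tested, and without replicate 2 of HE1 6 passed, beside 14.1%.

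Levels were next compared between genes, per kilobase (kb) of exon, together with the receptors and ligands outside the 10. The length was that of all annotated exon bases of a gene, 14.2 kb for Notch1 and 8.09 kb for Notch3. Which transcripts were present was not determined, so shares and ranks between genes also depend on that length. Notch3, a receptor of mural cells, was the largest receptor in ES, at 48.6% ± 0.42 of the sum of the 4 receptors in CPM per kb (SD, n = 2), and in HB, at 64.9% ± 2.46, where Notch1 held 11.9% ± 1.76 and Notch4 2.67% ± 0.88. In HE1 Notch1 held 41.9% ± 8.33, Notch3 23.9% ± 4.87 and Notch4 22.0% ± 3.85. In HE2 the libraries differed, with Notch1 leading in replicate 1 and Notch2, at 40.4%, in replicate 2. In HP the leading receptor was Notch2 at 43.6% ± 3.70, with Notch1 at 18.0% ± 4.56 and Notch4 at 4.91% ± 3.24. The summed receptor level had its highest mean in HB, at 104.69 and 118 CPM per kb, overlapping ES at 99.8 and 104.77. It was 96.3 and 90.8 in HE1, and 26.8 and 33.4 in HP, and in HE2 it was 59.6 in replicate 1 and 33.7 in replicate 2. Differences in these shares and sums were not tested.

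Among the 5 canonical ligands, Jag1 and Jag2 together made up most of the transcripts per kb in ES, HE1, HE2 and HP, but not in HB. In HB Dll3, a divergent Delta protein of the presomitic mesoderm that does not activate receptors on other cells, held 45.7% ± 5.47, Dll1 18.6% ± 3.89 and Dll4 4.13% ± 0.47 of the summed ligand level. In HE1 Dll3 was at 1.55% ± 1.22, Dll4 at its largest share of 9.91% ± 0.24, and Jag2 at 47.4% ± 3.16. In HP Jag1 alone held 72.6% ± 7.78. The summed ligand level was highest in ES, at 38.8 and 39.8 CPM per kb, and was 11.5 and 10.9 in HP.

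The targets differed widely in level per kb. In HB Hes1 was at 45.0 ± 4.90, Hey1 at 20.0 ± 2.93 and Hey2 at 2.48 ± 0.02 CPM per kb (SD, n = 2). In HE1 Hey1 and Hey2 were at like levels, 3.93 ± 0.24 and 3.78 ± 1.31 CPM per kb, below Hes1 at 10.7 ± 0.09. Hes1 held more than each of the others at all 5 stages, with 54.9% ± 1.99 of their sum in HP as its lowest share and 91.3% ± 0.48 in ES as its highest.

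**Figure D3:**
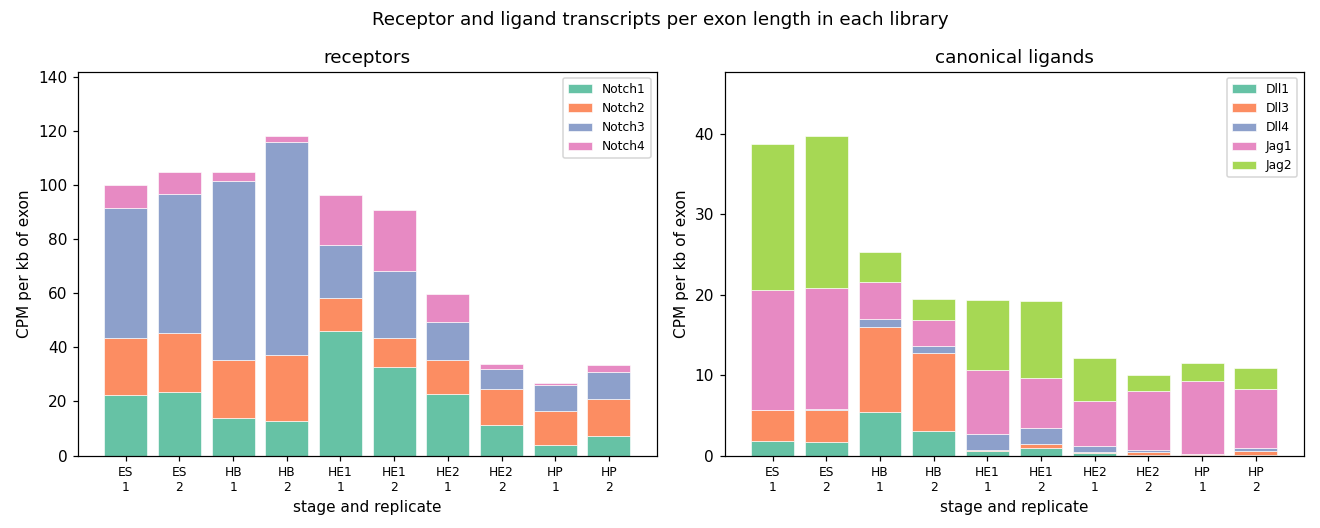
Stacked levels in CPM per kb of exon (vertical axes, linear, from 0) of the 4 receptors (left) and the 5 canonical ligands (right) in each of the 10 libraries (horizontal axis, stage and replicate). Notch3 is the largest receptor block in HB and Notch1 in HE1, Dll3 is prominent only in ES and HB, and Jag1 is the largest ligand block in HP.

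The other receptors and ligands gave the following values. Notch3 was at 535 and 636 CPM in HB and 159 and 200 CPM in HE1, a fall of 1.7 ± 0.27 on the log2 scale (adjusted p = 0.0011), and it fell by a further 1.03 ± 0.26 into HE2 (adjusted p = 0.033, with 0.155 without replicate 2 of HE1 and 0.188 without replicate 2 of HE2). Notch2 was at 230 and 263 CPM in HB and 130 and 117 CPM in HE1 (-1.0 ± 0.14, adjusted p = 0.00059), and 5.02% of its exonic bases overlap Gm42820 on the same strand. Thus from HB to HE1 Notch1 and Notch4 rose while Notch2 and Notch3 fell. Dll3 rose by 1.36 ± 0.46 from ES to HB (adjusted p = 0.035) and fell by 5.04 ± 0.56 into HE1 (adjusted p = 0.00014), from 30.2 and 27.5 to 0.379 and 1.32 CPM. Without replicate 2 of HE1 that difference was -6.23. Dlk1, a ligand-like protein without the receptor-binding Delta domain, rose by 1.82 ± 0.48 from HB to HE1 (adjusted p = 0.016), and Dlk2 stayed at 0.132 to 0.991 CPM with no call. The rise of Dll3 into HB did not pass without any 1 of the ES or HB libraries, and that of Dlk1 did not pass without either HB library or replicate 1 of HE1.

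Beyond the 10 genes, 54 pathway genes were listed by role and 53 were tested, all but Hes3, which had at most 17 read pairs in a library. From ES to HB 27 of them passed (11 higher, 16 lower, beside 40.4% of all tested genes), from HB to HE1 21 (13 higher, 8 lower, beside 32.3%), from HE1 to HE2 13 (5 higher, 8 lower, beside 13.2%) and from HE1 to HP 19 (8 higher, 11 lower, beside 24.9%). Without replicate 2 of HE1 the counts were 14 from HB to HE1, 2 from HE1 to HE2 (Mfng and Furin) and 9 from HE1 to HP, where 23.9%, 3.11% and 14.1% of the genes then tested passed. The count from HE1 to HE2 was 1 (Dtx4) without replicate 2 of HE2, beside 1.95% of the genes then tested, and that from HE2 to HP was 2, beside 2.58%. From HE2 to HP 0 passed by edgeR, with 5 at an unadjusted p under 0.05, 1 by DESeq2 and 0 by limma-voom. The medians over these genes, from -0.08 to 0.20 over the 5 comparisons, lay nearer to 0 than those of the 10 genes.

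Among the modifiers and proteases, the groups did not move as blocks. The glycosyltransferases that add sugars to the receptor gave 4 calls of 5 from ES to HB, all lower, where 22.6% of all tested genes were called lower (Poglut1 -1.30, Lfng -1.71, Mfng -1.14 and Rfng -0.82 on the log2 scale). Of these calls, that of Mfng was lost without any 1 of the ES or HB libraries and that of Rfng without replicate 1 of HB. The Fringe genes then parted: from HE1 to HE2 Mfng rose by 1.63 ± 0.36 (adjusted p = 0.022), from 8.62 and 14.6 to 34.8 and 37.2 CPM, while Lfng fell by 1.29 ± 0.32 (adjusted p = 0.029) and Rfng rose by 0.67 ± 0.18 (adjusted p = 0.041). None of these passed without replicate 2 of HE2 (adjusted p = 0.109 for Mfng, 0.168 for Lfng and 0.315 for Rfng), and without replicate 2 of HE1 Mfng alone did, while Lfng, at 5.55 and 11.0 CPM in HE1, was then at -0.71 (adjusted p = 0.155) and Rfng at 0.55 (adjusted p = 0.196). Over the 10 leave-one-out fits the calls of Mfng, Lfng and Rfng in this step held in 9, 5 and 4. Of the 10 cleavage genes, 5 passed from ES to HB (2 higher, 3 lower, beside 40.4% of all tested genes), 3 from HB to HE1 (all higher, where 17.5% of all tested genes were called higher), 1 from HE1 to HE2 (lower, beside 13.2%) and 3 from HE1 to HP (1 higher, 2 lower, beside 24.9%). Of the 5 from ES to HB, the calls of Furin, Psen2 and Ncstn were each lost without any 1 of the ES or HB libraries. Those that rose from HB to HE1 were Furin, which makes the first cut in the receptor during its export, at 103 and 111 CPM in HB and 329 and 274 CPM in HE1 (1.49 ± 0.21, adjusted p = 0.00053), Adam10, the protease of ligand-dependent cleavage (1.12 ± 0.18, adjusted p = 0.0012), and Psen2 of gamma-secretase (1.36 ± 0.24, adjusted p = 0.0023). Furin fell again into HE2 (-0.99 ± 0.20, adjusted p = 0.017), which did not pass without replicate 2 of HE2 (-0.67, adjusted p = 0.113). Of the 4 ligand ubiquitin ligases, which drive ligand uptake, Mib1 rose from ES to HB by 0.63 ± 0.17 (adjusted p = 0.013), and from HB to HE1 Neurl1a rose by 0.89 ± 0.23 (adjusted p = 0.013) while Neurl1b fell by 2.40 ± 0.48 (adjusted p = 0.0041). The rise of Neurl1a did not pass without replicate 2 of HE1 (0.65, adjusted p = 0.0857) or of HB, and that of Mib1 did not pass without either ES library or replicate 2 of HB.

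Of the 7 coactivators of RBPJ, 5 passed from ES to HB (beside 40.4% of all tested genes) and 5 from HB to HE1 (beside 32.3%), each time 3 higher and 2 lower. The call of Ep300 from ES to HB was lost without any 1 of the ES or HB libraries. From HB to HE1 the call of Snw1 was lost without replicate 2 of HB or of HE1, and that of Kat2a held in 3 of 10 leave-one-out fits. Without replicate 2 of HE1 the changes were -0.32 for Kat2a and -0.43 for Snw1, against -0.54 and -0.56 with all libraries. All 3 Mastermind genes rose from ES to HB, Maml3 by 3.85 ± 0.20 (adjusted p = 7.9e-07) from 1.86 and 2.87 to 33.0 and 34.5 CPM, Maml2 by 1.82 ± 0.28 and Maml1 by 1.14 ± 0.17. Maml2 and Maml3 rose again into HE1, by 1.76 ± 0.27 and 1.25 ± 0.18. Kat2b, a histone acetyltransferase, fell by 2.54 ± 0.17 from ES to HB (adjusted p = 2.5e-06) and rose by 1.17 ± 0.16 into HE1 (adjusted p = 0.00054). Among the corepressors Spen fell by 1.20 ± 0.14 from ES to HB (adjusted p = 9.7e-05) and Ctbp2 by 1.79 ± 0.13 (adjusted p = 4.6e-06), while Ctbp1 rose by 0.69 ± 0.16 (adjusted p = 0.006) and Kdm5a by 0.67 ± 0.18 (adjusted p = 0.012). Of these changes, that of Kdm5a did not pass without any 1 of the ES or HB libraries and that of Ctbp1 without replicate 2 of ES or of HB.

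Inhibitors and turnover genes showed separate courses. Nrarp, a feedback inhibitor that is itself a Notch target, was at 5.76 and 4.91 CPM in ES, 38.6 and 43.2 CPM in HB, 38.2 and 19.2 CPM in HE1, 33.2 and 20.9 CPM in HE2, and 10.4 and 9.79 CPM in HP. It rose by 2.93 ± 0.33 from ES to HB (adjusted p = 6.9e-05) and fell by 1.5 ± 0.31 from HE1 to HP (adjusted p = 0.0069, a call lost without replicate 1 of HP), and 79.4% of its exonic bases are overlapped on the opposite strand by Gm38287. Numb, which sends receptors to degradation, rose by 0.88 ± 0.16 and 0.81 ± 0.16 in the first 2 steps (adjusted p = 0.0017 and 0.0043) and fell by 0.68 ± 0.16 into HE2 (adjusted p = 0.027, with 0.0889 without replicate 2 of HE1 and 0.225 without replicate 2 of HE2, and the call held in 4 of 10 leave-one-out fits). Dtx4 fell from ES to HB by 1.93 ± 0.27 (adjusted p = 0.00031) and rose by 1.02 ± 0.27 and 1.31 ± 0.26 in the next 2 steps (adjusted p = 0.017 and 0.016), to 14.5 and 11.0 CPM in HE2, and it was at 16.2 and 24.7 CPM in HP. The step into HE1 did not pass without either HB library, and the step into HE2 was 1.30 (adjusted p = 0.0716) without replicate 2 of HE1 and passed without replicate 2 of HE2 (1.51, adjusted p = 0.0312). Dtx1 fell from 24.9 CPM in both ES libraries to 1.12 and 0.789 CPM in HB (-4.70 ± 0.55, adjusted p = 9.3e-05).

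Of the other HES and HEY genes, Hes6 rose by 0.78 ± 0.22 from HE1 to HE2 (adjusted p = 0.044), from 10.3 and 11.6 to 16.3 and 21.4 CPM. This call held in 3 of 10 leave-one-out fits and was lost without either HE1, ES or HB library (adjusted p = 0.121 without replicate 2 of HE1) or replicate 2 of HE2 (0.308). Hes2 had 0 read pairs in both HB libraries, at least 9.19-fold below ES when HB is set to the floor of 3 read pairs per library, and in HE1 it was at 0 and 1.35 CPM, so the call from HB to HE1 (adjusted p = 0.035) came from replicate 2 alone. Hes5 was likewise at 0 and 1.02 CPM in HE1. Hes7 was at 0.316 to 1.84 CPM over the 10 libraries and Heyl at 0 to 0.336 CPM, with no call for either in any comparison.

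**Figure D4:**
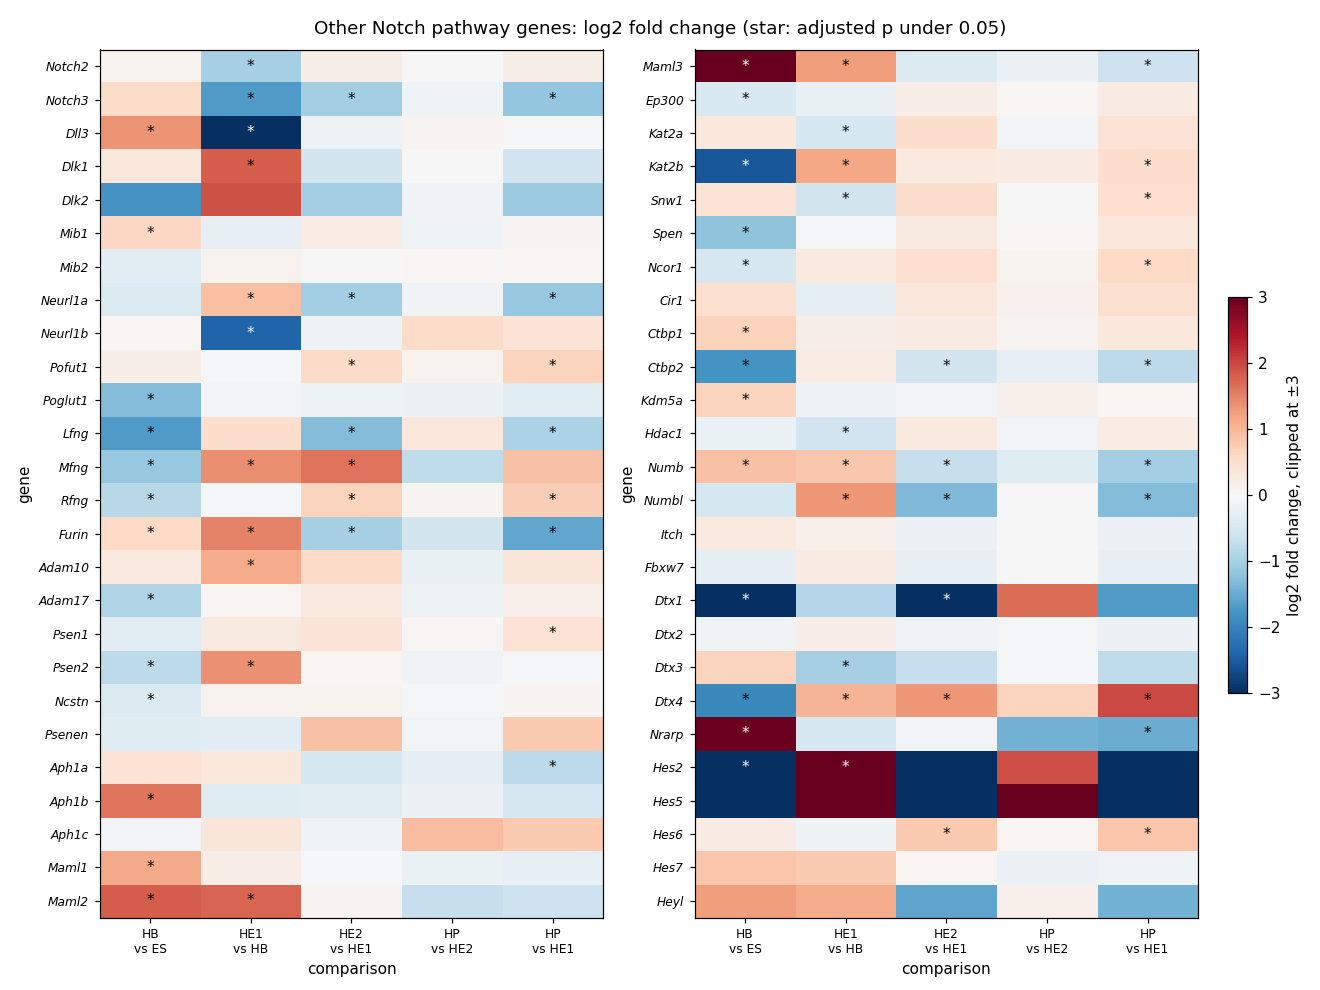
Log2 fold change (colour, red higher and blue lower in the later stage, clipped at 3 in each direction) of other pathway genes that were tested (rows, by role) in the 5 comparisons (columns), with a star where the adjusted p was under 0.05. Maml1, Maml2, Maml3 and Nrarp are red from ES to HB, Notch2 and Notch3 blue from HB to HE1, and the column of HP against HE2 holds no star.

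For each of the 10 genes the 3 genes with the most similar log2 levels over the 10 libraries were listed, out of 12235 tested genes with a mean of at least 9 CPM in 1 stage or more. For Notch1 these were Ctsl, Sgk1 and Dock6 (Pearson's r 0.981, 0.966 and 0.965) and for Notch4 Cyyr1, Dgkh and Mmrn2 (0.982, 0.970 and 0.970). For the Delta ligands they were Zic2, Hdx and Cabp1 (Dll1, 0.981 to 0.989) and Rapgef5, Hmcn1 and Nfat5 (Dll4, 0.949 to 0.954), and for the Jagged ligands Gcnt2, Slc37a1 and Slain1 (Jag1, 0.962 to 0.976) and Vsig10, Nav2 and Adrb3 (Jag2, 0.986 to 0.988). Rbpj was nearest to H2-M6-ps, Alg13 and Klf5 (0.996 to 0.997). Hes1 was nearest to Hs3st3b1, Ypel3 and Sgsm1 (each 0.988), Hey1 to Cdh11, Wnt2b and Pcdh18 (0.986 to 0.99) and Hey2 to Frmd6, Peg3 and Klhl3 (0.985 to 0.987). The libraries share 5 stages, and 1 in 100 of all candidates correlated with a given gene at 0.859 to 0.976 or more, so a high value describes a shared order of stages. None of the 10 genes was among the 3 nearest to another.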

How the data were processed

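Ribosomal RNA-depleted directional libraries were made from nuclear-enriched RNA. According to the study's methods, the authors removed remaining ribosomal reads with RiboDetector, trimmed reads with Trimmomatic and aligned them to mm10 with HISAT2 2.2.1. The deposited counts are raw read pairs per gene from featureCounts 2.0.1 (paired, reverse-stranded, overlapping features all counted, multi-mapping reads not) with Ensembl release 102. The second deposited table holds 1 score per gene and stage, the authors' CPM-like stage mean from limma-voom. It was used to select the genes, to compare their levels and highest stages, and to limit the genes tested in 1 alternative. All 10 genes had the same highest stage in it.

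Levels are CPM from the counts with TMM library sizes. All 10 libraries were fitted with stage as the only term by edgeR 4.0.16 (filterByExpr, 22596 genes, quasi-likelihood F test), with the code tested on simulated data, and genes were called at an adjusted p under 0.05. The study's own test was limma-voom, an alternative here (limma 3.58.1), as was DESeq2 1.42.0. No 2 libraries held identical counts. A floor of 3 read pairs was 0.0532 to 0.126 CPM and covers counting error only. Genes named outside the 10 were those called, and all receptors, ligands and HES/HEY genes, and 1 listed gene is not reported here. The 10 genes and the lists were chosen with earlier results of these data known. Promoter windows came from RefSeq (GRCm38.p6).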

Additional observations from a re-analysis of the deposited data

How the results depend on the processing

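Over 17 alternatives each, the called differences of the 10 genes kept their sign in all 442 values and their call in 396. Leaving out 1 library gave 6 to 10 genes from ES to HB (8 with all libraries), 3 to 7 from HB to HE1 (7), 0 to 6 from HE1 to HE2 (4), 0 to 5 from HE2 to HP (0) and 4 to 7 from HE1 to HP (7), and for the other pathway genes 16 to 33 (27), 12 to 25 (21), 1 to 21 (13), 0 to 2 (0) and 8 to 23 (19). From HE1 to HE2 the 10 genes gave 7 calls without the filter on low counts, 6 by DESeq2, 6 with only the genes of the deposited matrix and 0 when only the 4 libraries were fitted, and the other pathway genes gave 21, 21, 17 and 1, while 15.5%, 20.8%, 21.5% and 2.87% of all genes then tested passed (13.2% in the reported fit). From HE2 to HP the 10 genes gave 2 by DESeq2 and 3 without the filter, and the other genes 1 and 1, beside 2.07% and 2.17% of tested genes. From ES to HB 43 other genes passed with only the 4 libraries, beside 62.9% of tested genes. Asking also for a 2-fold change left 15, 15, 7 and 7 of the other genes from ES to HB, HB to HE1, HE1 to HE2 and HE1 to HP, beside 28.8%, 20.9%, 8.65% and 16.5% of tested genes. Apart from the alternatives' own construction (fewer genes, fewer samples, a fold threshold), the cause of these changes was not tested.

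Signs turned only for uncalled differences. With 1 library left out, HP against HE2 ranged from -3.05 to 0.0114 for Notch4, from -1.16 to 0.31 for Jag2 and from -0.0399 to 0.64 for Hey1, and HE2 against HE1 from -0.35 to 0.0555 for Jag1. For Rbpj, HP against HE2 was 0.00615 with total counts. With total counts Dll4 from HE1 to HP (adjusted p = 0.0528) and Jag2 from HE1 to HE2 (0.052) missed, and by limma-voom Dll1 from HE1 to HE2 missed (0.0527) while Notch4 passed (0.0358).

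With a replicate block, 2 of 50 differences lost their call and none gained one: Notch1 from HE1 to HE2 (adjusted p = 0.0539) and Dll1 from ES to HB (0.0511). The 10 genes then gave 7, 7, 3, 0 and 7 calls and the other genes 26, 20, 9, 0 and 15, beside 36.9%, 27.6%, 8.40%, 0% and 20.4% of tested genes (ES to HB, HB to HE1, HE1 to HE2, HE2 to HP, HE1 to HP). The deviations of same-numbered libraries correlated at r from -0.316 to 0.213 over 10 pairs of stages, with 2 pairs over 0.1. As they had no common sign, the numbers were not read as pairs. With 2 libraries a stage no group was large enough for an outlier test, and low genes such as Dll1 and Dll4 in HP rest on few read pairs.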

Other observations

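Of the 12 pathway genes with a mean under 5 CPM in HE1, a grouping made after their values were seen, 8 were higher in replicate 2 of HE1 than in replicate 1 and 4 were lower (Aph1b, Aph1c, Neurl1b and Heyl, the first at 2.15 against 3.07 CPM and the second at 0.958 against 2.15). Hes2 was at 1.35 against 0 CPM, Hes5 at 1.02 against 0, Dll3 at 1.32 against 0.379, Dlk2 at 0.991 against 0.252, and the antisense genes 0610009E02Rik and Gm14207 at 1.62 against 0.252 and 0.892 against 0.0841. The same library held 88.4 CPM of pluripotency markers against 7.70, 82.2 CPM of 4 cardiac markers against 21.3, of which Tnnt2 alone was 74.2 against 16.0, and 76.2 CPM of 4 neural markers against 30.5, of which Tubb3 alone was 73.6 against 29.2. How many of all genes at that level were higher in replicate 2 was not counted, and the part of these markers in the Notch values was not tested.

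Smooth muscle markers, read because Notch3 and Jag1 act in mural cells, summed to 88.6 and 99.3 CPM in ES, 17.2 and 13.2 CPM in HB, 622 and 939 CPM in HE1, 651 and 406 CPM in HE2, and 761 and 362 CPM in HP. Notch3 went the other way between HB and HE1, from 535 and 636 to 159 and 200 CPM, while Jag1 moved with the sum over the first steps, from 86.9 and 87.8 CPM in ES to 26.9 and 18.9 CPM in HB and 46.6 and 36.7 CPM in HE1. The highest single smooth muscle marker was at 403 and 569 CPM in HE1, 428 and 278 CPM in HE2, and 529 and 249 CPM in HP. The lowest was at 0.294 and 0.859 CPM in HE1, 1.25 and 0.444 CPM in HE2, and 1.57 and 0.731 CPM in HP, so the sums do not speak for all 4 markers. The part of these markers in Notch3 or Jag1 was not tested.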
